A study of Mus musculus with 6 samples.

Results

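Epx, Prg2, Prg3, Siglecf and Il5ra, 3 granule genes and 2 receptor genes of eosinophils, were followed through RNA-seq libraries of mouse granulocyte-macrophage progenitors (GMPs), which give rise to granulocytes and monocytes. The genes were taken by symbol, and all 5 were found among the 37620 gene rows of the table. C57BL/6 mice of 65 days gave 3 control libraries (genotype Bap1 f/f, with loxP-flanked Bap1 alleles and no Cre; littermates of the Cre carriers, per the design text) and 3 libraries labelled Bap1 knockout (genotype MX1+ Cre Bap1 f/f). All 6 libraries came from mice given polyI:polyC (pIpC), per the labels at day 42; the design text of the series gives a younger age. This double-stranded RNA mimic raises interferon, which turns on Cre through the Mx1 promoter in blood cells and in other tissues. Cells were sorted from bone marrow as GMPs by surface markers (no lineage markers or Sca1, but c-Kit, CD34 and Fc receptors). Whether the libraries of a group come from separate animals is not stated, so p-values measure the spread between these libraries, which may be technical. Only the knockout-labelled group carried Cre, so effects of Cre and of Bap1 loss cannot be told apart.

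Eosinophils are granulocytes of helminth defence and allergy. They arise in the bone marrow from progenitors within or close to the GMP pool, under the transcription factor GATA1 and with C/EBP factors and PU.1, and interleukin-5 (IL-5) drives their expansion. Their granules hold strongly basic proteins. Epx encodes eosinophil peroxidase, a haem enzyme that makes oxidants from halides. Prg2 encodes major basic protein, which forms the crystalline granule core, and Prg3 encodes its homologue, major basic protein 2. Siglecf encodes a sialic acid-binding inhibitory lectin of the mouse eosinophil surface, and Il5ra encodes the IL-5-binding chain of the IL-5 receptor, which signals with the common beta chain Csf2rb.

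The stretch of 250 bases before the transcription start is shown for the members in RefSeq's promoter table (build GRCm38.p6), since these genes moved in different directions; Prg2 was not among the entries. Capitals mark GATAA on either strand (TTATC when read on the other strand), the core bound by GATA factors. The windows are chr11:87875537-87875786 (minus strand) for Epx, chr2:84987965-84988214 (plus) for Prg3, chr7:43351091-43351340 (plus) for Siglecf and chr6:106749038-106749287 (minus) for Il5ra.
Epx: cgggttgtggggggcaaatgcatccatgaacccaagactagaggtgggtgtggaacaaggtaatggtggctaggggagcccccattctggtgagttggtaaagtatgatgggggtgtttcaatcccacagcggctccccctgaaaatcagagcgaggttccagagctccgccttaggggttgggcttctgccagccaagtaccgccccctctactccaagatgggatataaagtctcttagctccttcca
Prg3: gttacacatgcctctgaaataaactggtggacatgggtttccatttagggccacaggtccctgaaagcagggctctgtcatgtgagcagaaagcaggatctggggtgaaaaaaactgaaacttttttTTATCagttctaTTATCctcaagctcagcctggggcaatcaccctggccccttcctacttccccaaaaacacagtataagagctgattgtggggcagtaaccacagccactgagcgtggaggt
Siglecf: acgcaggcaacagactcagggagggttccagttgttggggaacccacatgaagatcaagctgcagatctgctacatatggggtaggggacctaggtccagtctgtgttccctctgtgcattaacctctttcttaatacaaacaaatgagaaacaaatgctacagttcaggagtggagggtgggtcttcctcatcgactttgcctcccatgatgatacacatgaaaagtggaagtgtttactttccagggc
Il5ra: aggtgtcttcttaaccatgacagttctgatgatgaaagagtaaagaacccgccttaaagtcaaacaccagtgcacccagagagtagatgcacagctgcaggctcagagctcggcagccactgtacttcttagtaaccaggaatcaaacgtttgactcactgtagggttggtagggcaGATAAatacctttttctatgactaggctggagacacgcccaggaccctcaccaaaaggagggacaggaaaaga

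The Prg3 window held 2 matches to GATAA, which begin 123 and 111 bases before the start, and the Il5ra window held 1, at 73 bases. The windows of Epx and Siglecf held 0. Of 27025 promoter windows of the same length, 23.0% held at least 1 match and 4.5% at least 2. The Epx window held TATAAA, the TATA box core, 24 bases before the start (13% of windows hold it on either strand). The Siglecf window held GAGGAA, a core of PU.1 and other ETS factors, on the other strand at 65 bases (23.1% of windows). TTGCNNAA, a pattern of the C/EBP site in which N is any base, was in none of the 4 windows and in 9.55% of all. These are matches of letters and say nothing of binding.

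Each library held 19464353 to 25901725 gene reads, and the deposited values are reads scaled to a common depth. Bap1, a nuclear deubiquitinase of histone H2A, was at 1343, 998.5 and 1076 in the control libraries and at 2671, 3309 and 2968 in the knockout-labelled ones. This goes against the labels, but a count over the whole gene does not check a deletion of some exons, so every direction given here follows the labels. GMP genes were read at high levels in both groups: Mpo, the myeloperoxidase of primary granules, was at 509900 ± 18680 and 635300 ± 122900 (SD, n = 3; limma adjusted p = 0.251, but 0.0469 without knockout-labelled replicate 1). Of the sort gate, Cd34 was at 11500 ± 296.5 and 3963 ± 243.6, lower in the knockout-labelled libraries (limma adjusted p = 5.04e-06), and Fcgr3, an Fc receptor gene, was at 13250 ± 728.1 and 7836 ± 1485, also lower (0.00198). Over the 14391 genes whose value averaged 10 or more, limma called 26.8% at an adjusted p under 0.05 (edgeR 26.0% of 14458 and DESeq2 20.5% of 20733 on recovered reads), 11.8% higher and 15.0% lower, with a median log2 fold change of 0.01. Corrected for GC content and length, 42.1% of calls were lower in place of 56.1% (2641 higher and 1917 lower).

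Of the 5 members, all of which passed the filter on low values, 3 fell and 1 rose in the knockout-labelled libraries. The 3 granule genes fell by very unequal amounts, 7.02-fold for Epx, 3.49-fold for Prg3 and 1.45-fold for Prg2. The receptor gene Siglecf rose 1.64-fold, and Il5ra did not pass. These 4 calls of 5 stand beside 26.8% of all tested genes, and 4 of 5 members had groups that did not overlap, as did 42.9% of tested genes (20.4% higher and 22.5% lower). edgeR and DESeq2 made the same 4 calls. In bulk libraries such as these, fewer cells of a type and less RNA per cell cannot be told apart.

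**Figure D1:**
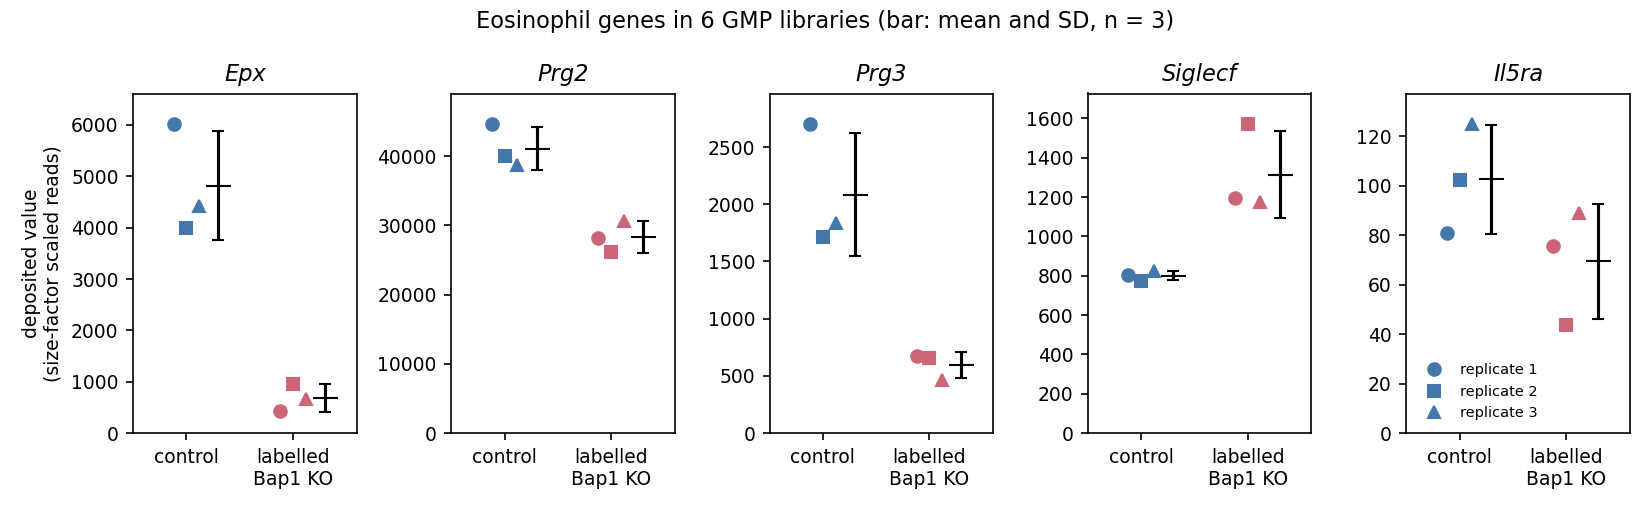
Deposited values (reads scaled by size factor, linear axis from 0) of the 5 genes in each of 6 libraries, with circles, squares and triangles for replicates 1, 2 and 3 and a black bar for the mean and SD of 3 libraries. The groups are apart for Epx, Prg2, Prg3 and Siglecf and overlap for Il5ra.

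Epx had values of 6011, 4001 and 4430 in control replicates 1, 2 and 3 and of 428.8, 955.8 and 671.4 in the knockout-labelled replicates. Every knockout-labelled library lay far below every control library, and control replicate 1 stood highest. The means were 4814 ± 1059 and 685.3 ± 263.8 (SD, n = 3 each), and limma gave a log2 fold change of -2.86 (SE 0.25, adjusted p = 1.94e-05). Of the 14391 tested genes, 314 had a lower log2 fold change. The counts behind these values were 4187 to 6765 reads in control and 402 to 918 in knockout-labelled libraries.

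Prg3 was at 2698, 1717 and 1840 in control and at 674.2, 652.8 and 464.8 in knockout-labelled libraries. The groups were again well apart, and control replicate 1 was again the highest. Means were 2085 ± 534.7 and 597.2 ± 115.2 (SD, n = 3), and the limma log2 fold change was -1.79 (SE 0.20, adjusted p = 8.64e-05).

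Prg2, by far the most abundant of the genes, was at 44570, 39990 and 38660 in control and at 28220, 26120 and 30690 in knockout-labelled libraries. The groups did not overlap, but the gap between them was small beside those of Epx and Prg3. Means were 41080 ± 3100 and 28350 ± 2289 (SD, n = 3), which limma put at -0.54 on the log2 scale (SE 0.12, adjusted p = 0.00655). Without control replicate 1 the adjusted p was 0.0505 and the call was lost. The control mean of Prg2 was exceeded by that of only 46 tested genes, or 0.32%.

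Siglecf moved against the granule genes. Its values were 802.3, 774.9 and 821.8 in control and 1196, 1569 and 1177 in knockout-labelled libraries. The control libraries lay within a CV of 2.95%, and knockout-labelled replicate 2 stood above its group. Means were 799.7 ± 23.57 and 1314 ± 221 (SD, n = 3), which limma put at 0.70 on the log2 scale (SE 0.15, adjusted p = 0.00483). Without knockout-labelled replicate 2 the rise was 0.57 on the log2 scale (limma adjusted p = 0.0162).

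Il5ra was read at the lowest level of the 5, with 42 to 140 reads per library. Its values were 80.85, 102.2 and 124.8 in control and 75.74, 43.73 and 89.07 in knockout-labelled libraries. The groups overlapped, since knockout-labelled replicate 3 was above control replicate 1. Means were 102.6 ± 21.97 and 69.51 ± 23.3 (SD, n = 3), and the log2 fold change was -0.59 (SE 0.35, 95% interval -1.35 to 0.16, limma adjusted p = 0.229). That interval holds the log2 fold change of Prg2 and also 0, but not those of Epx, Prg3 or Siglecf.

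The libraries within a group did not rank alike for all members. Control replicate 1 was highest for Epx, Prg2 and Prg3 and lowest for Il5ra. Knockout-labelled replicate 2 was highest for Epx and Siglecf and lowest for Prg2 and Il5ra. The CV within a group ran from 2.95% (Siglecf, control) to 38.5% (Epx, knockout-labelled), and Prg2 was the steadiest over both groups, at 7.55% and 8.07%.

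**Figure D2:**
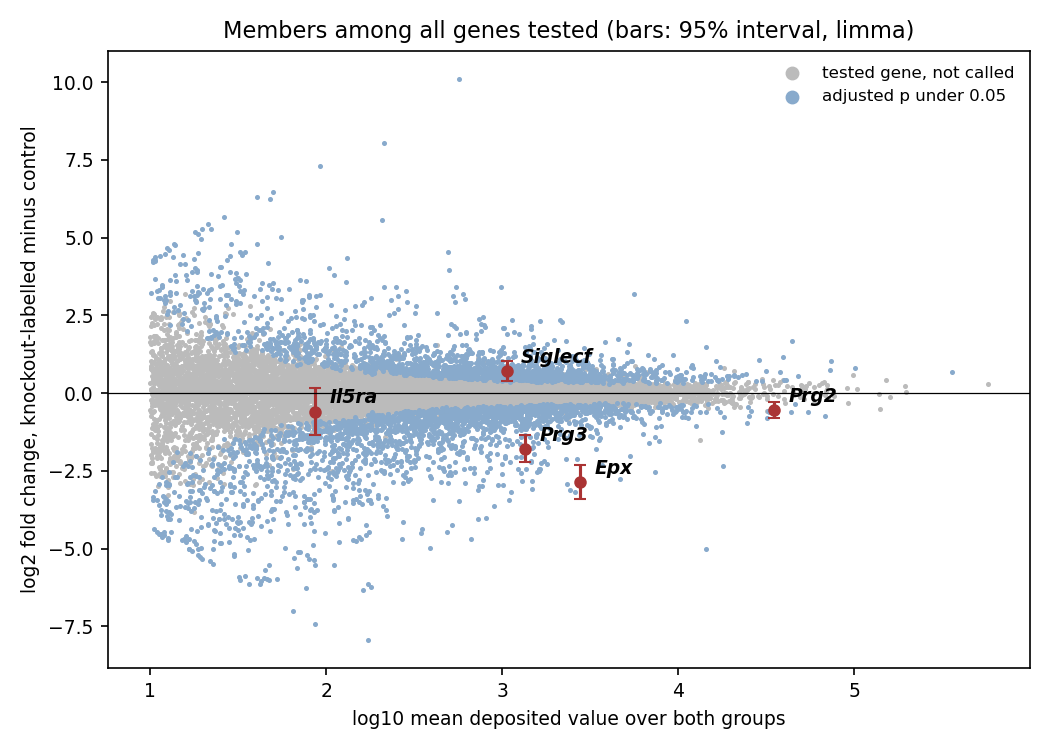
Log2 fold change of each tested gene (knockout-labelled minus control) against the log10 of its mean deposited value, with called genes in blue, others in grey and the 5 members in red with their 95% limma interval. Epx (-2.86) and Prg3 (-1.79) lie well below the bulk of genes of their level. Prg2 (-0.54) lies to the right of most genes, Siglecf (0.70) lies above 0 and the interval of Il5ra crosses 0.

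Levels of different genes were compared per kilobase of the longest GENCODE transcript (838 bases for Prg2, 949 for Prg3, 2607 for Siglecf, 2689 for Epx and 3575 for Il5ra). In control libraries the order of the levels was Prg2 (49020 ± 3699 scaled reads per kilobase, SD, n = 3), Prg3 (2197 ± 563.4), Epx (1790 ± 393.7), Siglecf (306.7 ± 9.042) and Il5ra (28.71 ± 6.146). Prg3 and Epx overlapped there, and the other neighbours in the order did not. In knockout-labelled libraries Siglecf (504 ± 84.77) stood above Epx (254.9 ± 98.09) with no overlap. It overlapped with Prg3 (629.3 ± 121.4). Prg2 (33820 ± 2731) remained the highest and Il5ra (19.44 ± 6.518) the lowest.

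Epx, Prg2 and Prg3 together took 0.195 to 0.232% of gene reads in control libraries and 0.111 to 0.143% in knockout-labelled ones. Prg2 made up 83.7 to 87.5% of these granule reads in control and 94.2 to 96.4% in knockout-labelled libraries, so that the mix of granule transcripts differed as well as their sum.

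A call for 1 gene and not another does not show that they differ, so the ratios of all 10 pairs of members within a library were compared. For 9 pairs the ratios of the groups, with 1 added to each value, did not overlap. Each of these had an exact 2-sided permutation p of 0.1, the smallest that 3 libraries against 3 allow (0.111 after Benjamini-Hochberg adjustment over 10 pairs), so none could pass 0.05. How often the ratios of other gene pairs stay apart was not counted. Of single tested genes, 42.9% had groups that did not overlap. The ratio of Epx to Prg2 was 0.135, 0.1 and 0.115 in control libraries and 0.0152, 0.0366 and 0.0219 in knockout-labelled ones, lower by 2.33 on the log2 scale (-2.33, SE 0.39). The ratio of Prg2 to Prg3, 2 genes that lie next to each other on chromosome 2, was 16.5, 23.3 and 21 in control and 41.8, 40 and 65.9 in knockout-labelled libraries (log2 difference 1.26, SE 0.27). The ratio of every knockout-labelled library lay below those of all control libraries for the first of these pairs and above them for the other.

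The ratio of Epx to Prg3 was nearly constant in control, at 2.23, 2.33 and 2.41, and was 0.637, 1.46 and 1.44 in knockout-labelled libraries (log2 difference -1.07, SE 0.40). Without knockout-labelled replicate 1, the library with the lowest ratio, the difference was -0.67. The widest gap was that of Epx to Siglecf, from 7.48, 5.16 and 5.39 in control to 0.359, 0.609 and 0.571 (log2 difference -3.57, SE 0.29). Control libraries therefore held more Epx than Siglecf reads, and knockout-labelled libraries more Siglecf than Epx reads. That the ratios of Epx, Prg2 and Prg3 to Siglecf did not overlap followed from the single genes and was not a further result. Every knockout-labelled value was below every control value for the granule genes and above for Siglecf. Siglecf to Il5ra was higher by 1.30 on the log2 scale (SE 0.47), but by 0.86 without knockout-labelled replicate 2. The pair that overlapped was Prg2 and Il5ra, with a log2 difference of 0.06 (SE 0.34, exact permutation p = 0.8). Prg3 to Il5ra was only just apart, at 33, 16.6 and 14.6 in control and 8.8, 14.6 and 5.17 in knockout-labelled libraries (log2 difference -1.2, SE 0.57). That it counts as apart rests on the 1 added to each value before the ratio was taken.

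**Figure D3:**
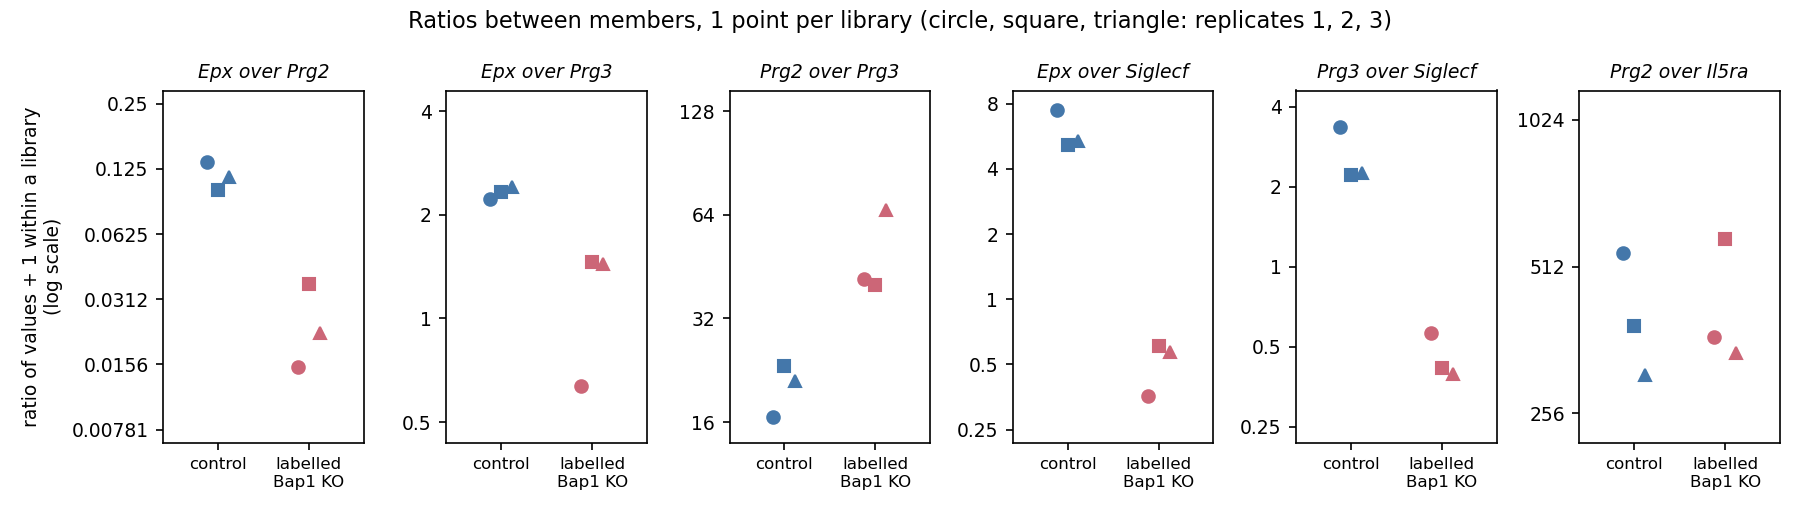
Ratio of the values of 2 members within each library (each value plus 1, log2 axis) for 6 of the 10 pairs, with 1 point per library and marker shape for the replicate. The groups are apart in the first 5 panels, with the widest gap for Epx over Siglecf, and overlap for Prg2 over Il5ra.

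Little of the members' sequence was shared with other genes. Reads that align to several places carry no gene in this table, and 0 of the 50-base stretches of the longest Epx, Prg2 and Prg3 transcripts were found in a transcript of another gene. Prg2 and Prg3 shared at most 23 identical bases in a row. For Siglecf 6 of 2558 such stretches (0.235%) and for Il5ra 37 of 3526 (1.05%) occurred elsewhere. No annotated gene overlapped a member.

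Genes next to the members were taken by their position in the annotation after values were known. Next to Siglecf on chromosome 7 lies Siglecg, an inhibitory lectin of the same family known from B cells. Siglecg went from 1773, 1857 and 1702 in control to 170.7, 387.3 and 183.8 in knockout-labelled libraries, 7.19-fold lower (log2 fold change -2.94, SE 0.26, limma adjusted p = 2.23e-05), while Siglecf rose. Nkg7, a granule gene of cytotoxic cells and the third gene on the same side, rose like Siglecf (log2 fold change 0.67, limma adjusted p = 0.00756). Tnks1bp1, the third gene from Prg3, went from 10.24 to 39.04 on average (log2 fold change 1.80, limma adjusted p = 0.0297), against the fall of Prg3. That call was lost with no filter beyond 1 read (0.0517) and without any 1 library other than knockout-labelled replicate 1 (0.0515 to 0.0976). Mpo and Lpo, the peroxidase genes that lie near Epx on chromosome 11, had log2 fold changes of 0.30 and -0.30 (limma adjusted p = 0.251 and 0.679). Slc43a3, the neighbour of Prg2 on the side away from Prg3, was at -0.20 (0.219), and Trnt1, next to Il5ra on chromosome 6, was at 0.08 (0.748, but 0.0213 as higher with GC and length correction).

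The genes with the most similar profile were those with the smallest root mean square difference from a member over the 6 libraries, in log2 values centred on each gene's mean. They were Zfp251, Slfn8 and Tmem98 for Epx (0.165 to 0.182), Casp9, Nat8f1 and Ap5m1 for Prg2 (0.036 to 0.057), and Trim26, Snx32 and Phf11b for Prg3 (0.113 to 0.163). For Siglecf they were Itgb2, the integrin beta chain of leukocytes, Mcu, the mitochondrial calcium uniporter, and Slc40a1, the iron exporter ferroportin (0.024 to 0.041), and for Il5ra Slc30a4, Nf1 and Vezt (0.074 to 0.107). No member was among the 3 nearest of another, and the pair of members with the smallest difference, Prg2 and Il5ra, differed by 0.342. This measure is small between genes that change little. Among 14390 genes, Il5ra had rank 4626 from Prg2, and Prg2 had rank 741 from Il5ra. Prg3 had rank 258 from Epx, and Epx had rank 1589 from Prg3, at a difference of 0.668.

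Other genes of the eosinophil programme were counted in 4 lists, of which 44.4%, 43.8%, 40.0% and 37.5% of tested genes were called, in the order below. Of all tested genes 26.8% were called, 11.8% higher and 15.0% lower. Of 9 tested granule and enzyme genes, 1 rose and 3 fell, with a median log2 fold change of -0.16 (0.20 with GC and length correction, 0.05 with DESeq2, 0.04 with no filter beyond 1 read, -0.02 without control replicate 2 and -0.07 without knockout-labelled replicate 3), beside 0.01 for all tested genes. Without control replicate 2 or 3, or without knockout-labelled replicate 2, 0 rose and 2 fell. Ear6, an eosinophil-associated ribonuclease, went from 1955, 878.1 and 727.3 in control to 238.9, 180.1 and 138.2 in knockout-labelled libraries, 6.39-fold lower (log2 fold change -2.56, SE 0.33, limma adjusted p = 0.000241). As for the granule members, control replicate 1 was the highest library and the groups did not overlap. Counts of this family are uncertain, since its genes are close copies: Ear1 and Ear2 did not pass, with log2 fold changes of 0.48 and 0.24 (limma adjusted p = 0.099 and 0.428); Ear1 passed as higher without control replicate 1 (0.0394) or knockout-labelled replicate 3 (0.0369), with the replicate block (0.0421) and with GC and length correction (0.0347).

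Alox15, the 12/15-lipoxygenase of eosinophils and macrophages, went from 110.8 ± 25.46 to 18.42 ± 12.52 (SD, n = 3; log2 fold change -2.72, limma adjusted p = 0.00243). Alox5ap, the activating protein of leukotriene synthesis, rose 1.33-fold (limma adjusted p = 0.0228). It did not pass once any 1 control library was left out (0.0666 to 0.103), or without knockout-labelled replicate 2 (0.0536).

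Of 16 tested receptor and surface genes, 1 rose and 6 fell, with a median of -0.48 (-0.22 over the 12 averaging 50 or more, -0.13 without control replicate 1 and -0.24 without knockout-labelled replicate 1). Without control replicate 2 these counts were 0 and 2, without control replicate 1 they were 1 and 4, and without control replicate 3 they were 0 and 4. Ccr3, the eotaxin receptor that guides mature eosinophils into tissue, was low, at 37.32, 62.11 and 42.78 in control and 3.2, 13.53 and 10.28 in knockout-labelled libraries. All 3 knockout-labelled libraries lay below the controls (log2 fold change -2.42, SE 0.59, limma adjusted p = 0.0109, but 0.0595 without control replicate 2). Adgre1, the F4/80 antigen of eosinophils and macrophages, fell from 392.4 ± 27.86 to 94.22 ± 8.715 (log2 fold change -2.05, limma adjusted p = 5.86e-05). Adgre1 is also counted among the monocyte and macrophage markers below, so the falls in this list are not particular to eosinophils.

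Cd300a, an inhibitory receptor of several myeloid cells, fell 2.19-fold (limma adjusted p = 0.000236). Ptgdr2, the prostaglandin D2 receptor of eosinophils and basophils, rose 3.04-fold (0.0199). It missed the threshold when control replicate 2 (0.0525) or 3 (0.0726) or knockout-labelled replicate 1 (0.0667) was left out. Csf2rb, which pairs with the IL-5 receptor chain, was at 1952, 1735 and 1415 in control and 1605, 2248 and 2584 in knockout-labelled libraries. Those groups overlapped (log2 fold change 0.32, 95% interval -0.08 to 0.72, limma adjusted p = 0.217), but the gene passed without knockout-labelled replicate 1 (0.0318).

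Among 15 transcription factors of the eosinophil lineage and its alternatives, 4 rose and 2 fell (median 0.33). Without control replicate 2 or 3, or without knockout-labelled replicate 2, 2 rose and 2 fell. Gata1, the factor that specifies eosinophils, was at 590.9, 362.1 and 517.9 in control and 614.4, 652.8 and 986.6 in knockout-labelled libraries. Its groups did not overlap, but it did not pass (log2 fold change 0.61, SE 0.23, limma adjusted p = 0.0653); without knockout-labelled replicate 1 it did (0.0488), as with DESeq2 (0.0374) and the replicate block (0.048). Cebpe, needed for late granule genes of neutrophils and eosinophils, rose 1.89-fold (limma adjusted p = 0.00914), and Id1, an inhibitor of helix-loop-helix factors, 2.10-fold (0.00189).

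Irf8, a factor of monocytes and dendritic cells that also acts in the eosinophil lineage, went from 5933 ± 266 to 1396 ± 897.6 (log2 fold change -2.31, limma adjusted p = 0.000833). Ets1, a factor of lymphoid and other cells, fell by 1.30 on the log2 scale (-1.30, 0.00404). Gata2, Cebpa and Spi1 (PU.1) did not pass, at log2 fold changes of -0.32, -0.22 and 0.33 (limma adjusted p = 0.305, 0.374 and 0.206). With GC and length correction Gata2 (0.042) and Cebpa (0.0357) passed as lower, Gata2 also without knockout-labelled replicate 3 (0.0348). Spi1 passed as higher without that library (0.031).

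In IL-5 receptor signalling 5 of 24 tested genes rose and 4 fell, with a median of -0.04 (0.11 with edgeR and DESeq2, and 0.23 without knockout-labelled replicate 1). Leaving out control replicate 2 or 3 left 1 and 2 calls, control replicate 1 left 3 and 3, and knockout-labelled replicate 2 or 3 left 2 and 3. The kinase gene Jak1 fell 1.47-fold (limma adjusted p = 0.00445). The survival kinase gene Pim1, a STAT5 target, rose 2.91-fold (limma adjusted p = 0.0176), a call lost without knockout-labelled replicate 3 (0.0648) or control replicate 2 (0.0561) or 3 (0.056). Stat5a and Stat5b, the main STATs of IL-5, had log2 fold changes of 0.25 and -0.46 and did not pass (limma adjusted p = 0.403 and 0.0641).

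**Figure D4:**
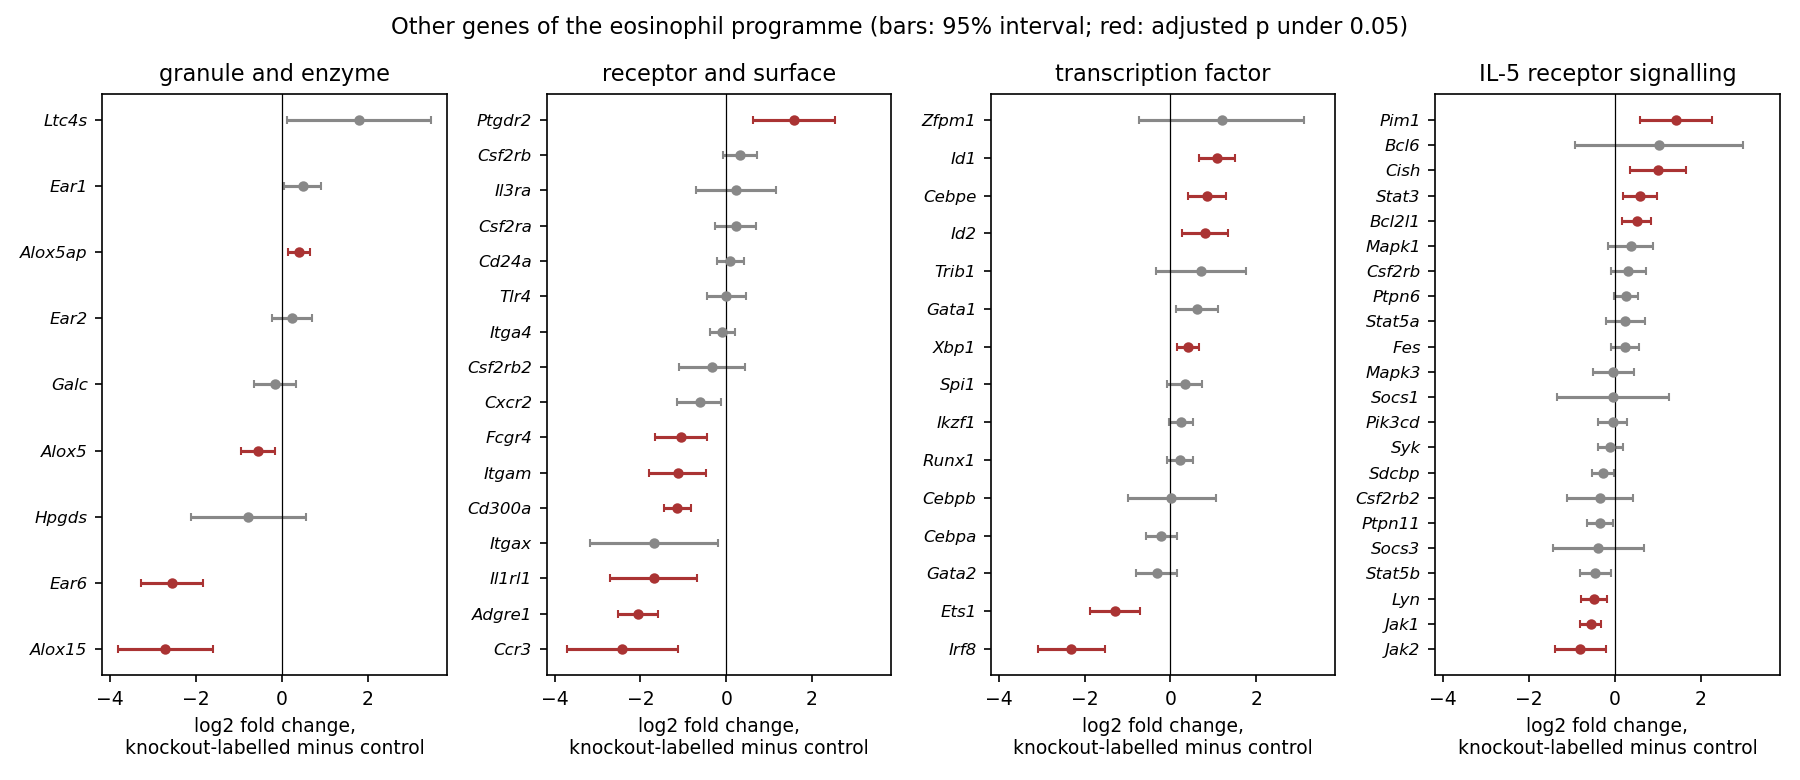
Log2 fold change (knockout-labelled minus control) with 95% limma intervals for tested genes of 4 lists, in red where the adjusted p was under 0.05 and in grey otherwise. Alox15, Ear6, Ccr3, Adgre1 and Irf8 lie at -2 or below, while most transcription factor and signalling genes lie within 1 of 0.

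Markers of other cells moved in the same libraries. The share of tested markers called was 31.2% for neutrophils and 57.1 to 100% for the other lists, beside 26.8% of all tested genes. Basophils, mast cells and eosinophils are related lineages, and of 14 tested basophil and mast cell markers 2 rose and 7 fell (median -1.75, or -1.13 over the 10 averaging 50 or more); 0 rose without control replicate 1, and 1 rose without control replicate 2 or 3 or knockout-labelled replicate 3. The summed level of all 18 was 52400 to 62870 in control and 21630 to 31650 in knockout-labelled libraries. That sum is weighted to abundant genes, in control above all Prss34, whose mean was 27880 there and 891 in knockout-labelled libraries. Of the genes of mature connective tissue mast cells, Tpsab1, Mcpt4 and Mrgprb2 had 0 reads in every library. Cma1 had 12, 7 and 68 reads in control and 18, 0 and 14 in knockout-labelled libraries. Tpsb2 had 0, 9 and 14 reads in control and 0 in every knockout-labelled library. The protease gene Prss34 of basophils and mast cells went from 24250, 28550 and 30820 to 952.6, 570.6 and 1150 (log2 fold change -5.02, limma adjusted p = 1.46e-07), and Ms4a2, the beta chain of the IgE receptor, fell 4.81-fold. Mcpt8, a basophil protease, rose 1.55-fold (limma adjusted p = 0.0168; 0.0715 without control replicate 1 and 0.0711 without control replicate 2), and Kit, also a marker of the gate, rose by 0.47 on the log2 scale (0.0214; 0.054 without knockout-labelled replicate 3, 0.0783 and 0.0936 without control replicate 1 and 3).

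Of 16 neutrophil granule markers 5 rose and 0 fell (median 0.48), with Pglyrp1 2.88-fold and Ctsg 1.62-fold higher; without knockout-labelled replicate 3, 10 rose and 1 fell (median 0.78), and without knockout-labelled replicate 2 the median was 0.25. Their sum was 1018000 to 1130000 in control and 1278000 to 1952000 in knockout-labelled libraries. Mpo and Elane made up most of it, at means of 509900 and 268400 in control and 635300 and 444300 in knockout-labelled libraries. Of 12 tested monocyte and macrophage markers 1 rose (Cd68, log2 fold change 1.20) and 10 fell (median log2 fold change -2.46). Among those that fell were F13a1 (log2 fold change -2.52), Cx3cr1 (-4.69) and Csf1r (-2.43). The sums, 109300 to 127700 and 56710 to 116500, overlapped. Ly6c2, which was not called, took the largest part of them, at means of 61440 in control and 77620 in knockout-labelled libraries. Of 14 erythroid and megakaryocyte markers 5 rose, with Epor (log2 fold change 2.02) and Rhag (2.23), and 3 fell, with Car2 (-1.41) and Pf4 (-2.96). The median log2 fold change was 0.76. The rises were 3 without control replicate 2 or knockout-labelled replicate 2, and 2, with a median of 0.36, without knockout-labelled replicate 3. The sums were 15380 to 24410 and 9101 to 22180. Car1 and Car2 made up most of them, at means of 4740 and 10650 in control and 6966 and 4148 in knockout-labelled libraries. Of 7 tested B and T lymphoid markers 1 rose (Tcf7, log2 fold change 3.43) and 6 fell, with Cd79a (log2 fold change -4.43). Their median was -4.75, -3.16 over all 12 with no filter beyond 1 read and -0.67 over the 3 averaging 50 or more. It was -4.43 with genes at 0 in a group set at a bound of 3 reads per library, and the sums of that list were 2155 to 2468 and 1511 to 1662. Cd79b made up most of these sums, at means of 1791 in control and 1131 in knockout-labelled libraries. The part of these markers, and of the lower Cd34 and Fcgr3, in the members' changes was not tested.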

How the data were processed

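Per the labels' protocols, RNA was amplified by a SMARTer method and sequenced as Ion Torrent libraries, without molecular identifiers. Tools named in the submitters' processing notes are STAR, BWA 0.7.5a, Picard, HTSeq and DESeq2, and the builds are mm9 and NCBIM37; no source used here gives the strand setting. The deposited signal per gene is a read count that the authors divided by 1 size factor per library: 100% of values above 0 were whole multiples of the smallest, within 0.01 of a read, and whole reads were recovered so. The 5 rows that name no gene, 74.8 to 77.1% of listed reads, were left out. Symbols, transcript lengths and GC content came from GENCODE M21 on GRCm38, another build.

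The main test was limma 3.58.1 in R 4.3.3 (trended variance, log2(value + 1), group as covariate), 2-sided, over the genes averaging 10 or more, with Benjamini-Hochberg adjustment over all of them; it was tested on simulated data. Fold changes named as log2 are on that scale, which understates changes of low genes; other folds are ratios of group means. Replicates of a group differed beyond counting noise (chi-square per gene 13.3 to 51.2), so each counted as 1 sample. edgeR 4.0.16 and DESeq2 1.42.0 were run on the recovered reads as alternatives. Members and lists were chosen with earlier results of these data known. Besides the members and Bap1, the genes named by rule were the 2 called genes with the lowest p per direction in each list. The rule also named the 3 nearest profiles per member and Mpo, Prss34, Mcpt8 and Csf1r. Ear1, Ear2, Ccr3, Csf2rb, Cd34, Fcgr3, Gata1, Gata2, Cebpa, Spi1, Stat5a, Stat5b and the neighbouring genes were named after their values were seen. So were Tpsab1, Mcpt4, Mrgprb2, Cma1, Tpsb2, Elane, Ly6c2, Car1 and Cd79b. Some genes that this rule names are not reported here, and they are left out of the plot of the lists; counts and medians of the lists include them.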

Additional observations from a re-analysis of the deposited data

How the results depend on the processing

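Under 9 other settings (pseudocounts of 0.5 and 4, a filter at a mean of 50 or at 1 read, TMM scaling, edgeR, DESeq2, GC and length correction, and a replicate block) Epx, Prg2, Prg3 and Siglecf kept direction and call, and Il5ra stayed without a call: Epx lay between -2.94 and -2.81, Prg2 between -0.65 and -0.53, Prg3 between -1.83 and -1.79, Siglecf between 0.70 and 0.90 and Il5ra between -0.60 and -0.30. With each library left out in turn the ranges were -3.14 to -2.56, -0.59 to -0.48, -1.92 to -1.59, 0.57 to 0.78 and -0.80 to -0.30, and the 1 call lost was that of Prg2 (-0.48, adjusted p = 0.0505) without control replicate 1. The difference of Prg2 and Il5ra changed sign (-0.18 to 0.28), at -0.18 without knockout-labelled replicate 2 and -0.13 without control replicate 3. The other 9 pairs kept theirs, also with pseudocounts of 0.5 and 4 and with reads per kilobase. Gene length cancels in these differences, save for the pseudocount, so reads per kilobase could barely change them. Over all genes, calls ran from 1058 to 1796 higher and from 1413 to 2354 lower with a library left out, the fewest without control replicate 2 (1058 and 1422) or 3 (1105 and 1413), and were 2641 higher with GC and length correction, which had 13794 genes. Same-numbered libraries did not deviate together (correlations -0.104, 0.0417 and -0.058); the replicate block gave 1550 higher and 2014 lower, and Epx stayed at -2.86 (adjusted p = 1.85e-05). Il5ra, at 42 to 140 reads, is the member for which depth limits precision the most.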
